A study of Mus musculus with 2 samples.

Results

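The genes described here are the transcripts of the mitochondrial respiratory chain and ATP synthase, followed through the cell types of mouse 4T1 breast tumours. Members were taken by name: symbols that begin with Nduf, Sdha to Sdhd, Uqcr, Cox4 to Cox8, Atp5 or mt-, with at least 50 UMIs (unique molecular identifiers, the counted RNA molecules) in both libraries together. Of the 32285 genes in the files, 111 carry such a name and 108 passed the minimum. Cox7b2, Cox8b and Cox8c, subunit isoforms of testis or muscle, did not pass, with 3, 22 and 0 UMIs. The 108 members are 95 nuclear genes, of which 83 are named as subunits and 12 as assembly factors, and the 13 protein genes of mitochondrial DNA.

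4T1 is a mouse mammary carcinoma line, injected here with Matrigel into the mammary fat pad. One group of mice was given β-elemene, a plant sesquiterpene, at 30 mg/kg by daily intraperitoneal injection, and the control group, labelled vehicle, was given the same volume of normal saline. Tumours of both groups were taken after 18 days and profiled by droplet single-cell RNA sequencing. There is 1 library per group, and the number of tumours in a library is not given in the sources used here. Strain, sex and age of the mice are likewise not given. With 1 library a group no test is possible: every interval below is a 95% exact interval that covers counting error only, and a difference between the libraries cannot be told apart from a difference between tumours or preparations.

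The respiratory chain passes electrons from NADH (complex I) and succinate (complex II) through complexes III and IV to oxygen, and complex V uses the resulting proton gradient to make ATP. Most subunits are made from nuclear genes and imported, while a few hydrophobic core subunits of complexes I, III, IV and V are made inside the mitochondrion from its own DNA. Complex II is wholly nuclear. Several complex IV subunits exist as paralogues that differ between tissues, and Cox4i2 and Ndufa4l2 are the pair best known for answering to low oxygen.

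The β-elemene library held 157282740 UMIs in 11539 barcodes and the vehicle library 168750895 UMIs in 11324 barcodes. After filters and removal of called doublets, 10525 β-elemene and 10415 vehicle cells were kept. The libraries shared 37 cell barcodes. Cells were clustered without the 108 members among the variable genes, and clusters were named from marker lists. This gave 2798 malignant cells (Krt8, Krt18 and Epcam positive) with β-elemene and 3568 with vehicle, 1776 and 1124 neutrophils, 3001 and 2861 macrophages, 616 and 530 monocytes, 640 and 585 T and NK cells, 139 and 141 dendritic cells, 651 and 655 fibroblasts, 193 and 193 endothelial cells, and 37 and 39 pericytes. Pericytes were too few for ratios and are described by level only. Clusters without a clear class held 657 and 696 cells and were left out. Depth differed between classes: malignant cells had a median of 23127 UMIs with β-elemene and 22132.5 with vehicle, and neutrophils 1981 and 1909.

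Malignant cells and pericytes devoted the largest part of their RNA to the respiratory chain, and neutrophils the smallest. The 80 nuclear subunit genes with a median annotated transcript over 400 nt, called long nuclear subunits below, took 2.10% of the UMIs of malignant cells with β-elemene and 2.12% with vehicle. Ndufb1-ps, annotated as non-coding, is kept among the 80 in all shares, medians and counts. In pericytes the long nuclear subunits took 2.05% and 2.08%, from only 37 and 39 cells. The malignant markers Krt8, Krt18 and Epcam summed to 987 and 679 CPM in pericytes, against 4477 and 3723 CPM in malignant cells. Fibroblasts, the next class, had 379 and 264 CPM. The part of malignant RNA in the pericyte levels here and below was not tested. Monocytes followed with 1.90% and 1.83%. Macrophages had 1.78% in both libraries, endothelial cells 1.77% and 1.79%, fibroblasts 1.74% and 1.68%, dendritic cells 1.72% and 1.78%, and T and NK cells 1.68% and 1.74%. These 5 classes lie so close together that their order differed between the libraries. Neutrophils stood apart with 0.685% and 0.707%, and in both libraries all 8 other classes lay below malignant cells.

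Transcripts of mitochondrial DNA spread more widely between classes than the nuclear subunits did. The 13 mt- genes took 4.67% of the UMIs of malignant cells with β-elemene and 4.44% with vehicle, 4.79% and 3.81% in pericytes, and 4.12% and 3.69% in endothelial cells. Macrophages had 3.43% and 3.28%, dendritic cells 3.08% and 2.88%, monocytes 2.86% and 2.79%, T and NK cells 2.51% and 2.49%, fibroblasts 2.26% and 2.22%, and neutrophils 1.12% and 1.12%. Fibroblasts and endothelial cells thus had nearly the same nuclear share and very different mt- shares. Per UMI of a long nuclear subunit there were 2.33 mt- UMIs in endothelial cells with β-elemene and 2.06 with vehicle, against 1.30 and 1.32 in fibroblasts. Cells with over 20% mitochondrial UMIs had been removed, a limit that acts on the mt- genes themselves.

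**Figure D1:**
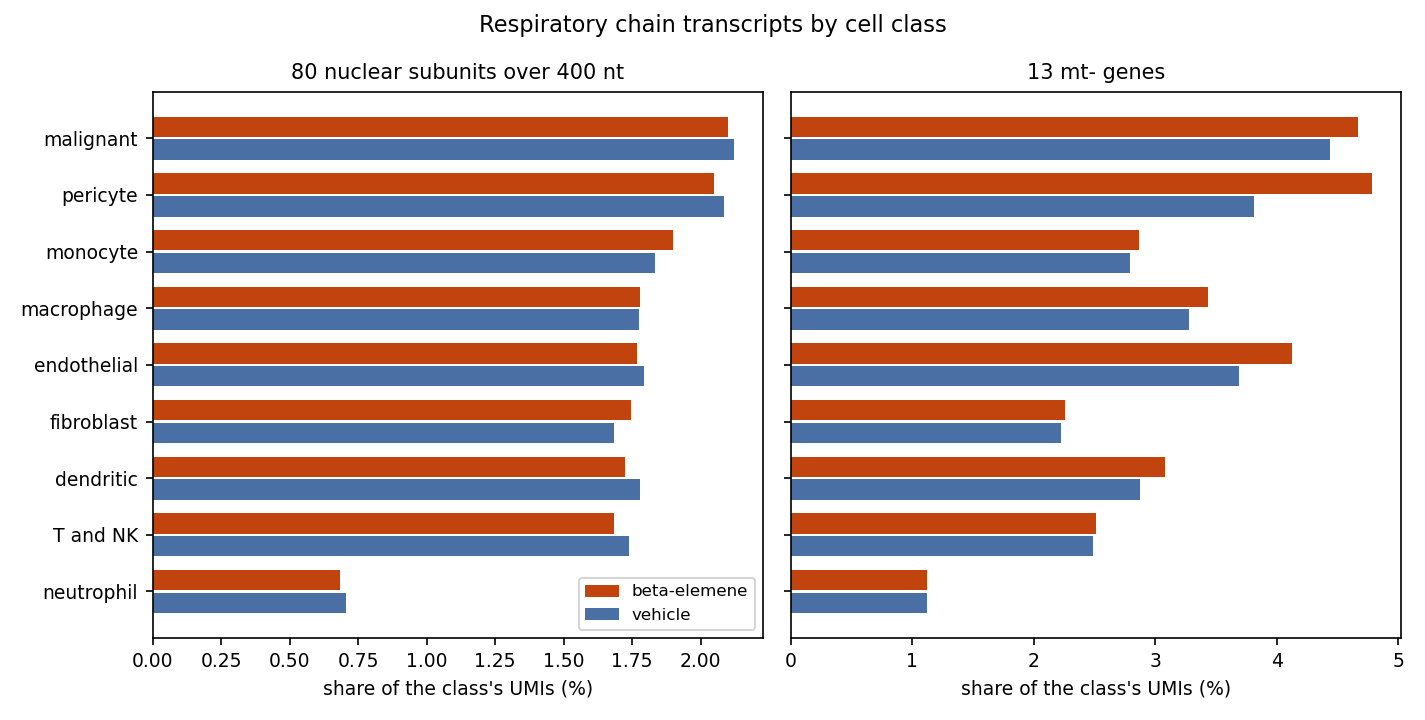
Share of each class's UMIs (horizontal axis, %) taken by the 80 long nuclear subunits (left) and the 13 mt- genes (right), with β-elemene above vehicle in each class, 1 library each and no error bars. Neutrophils are lowest in both panels (0.685% and 0.707%, and 1.12% in each library), and endothelial cells and fibroblasts separate in the right panel only.

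Within malignant cells the share differed between clusters. The cluster led by Lgals1, S100a6 and keratins (381 β-elemene and 545 vehicle cells) and the proliferating cluster with Top2a and histone genes (455 and 640 cells) had vehicle shares of long nuclear subunits of 2.43% and 2.26%. The cluster led by Hmga2 and Mast4, which held 477 β-elemene and 1033 vehicle cells, had 1.94%. Among macrophages, cluster 8, led by Ccl8, Selenop and Mrc1, had 1.27% in vehicle, and the shallow cluster 16 had 2.78%. Cluster 16 held 281 β-elemene and 103 vehicle cells at a median of 1840 UMIs.

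By gene, the class with the highest level was the malignant class for 26 of the 80 long nuclear subunits and pericytes for 24, then monocytes for 9, macrophages for 8, endothelial cells for 6, T and NK cells for 5, and dendritic cells and fibroblasts for 1 each. For the 13 mt- genes it was the malignant class in 8, endothelial cells in 3, macrophages in 1 and pericytes in 1. Levels are given as CPM, the class's UMIs scaled to 1000000, and are compared between classes, not between genes. The 4 members whose highest level was at least 4 times the median of the other classes were all paralogues of complex IV: Ndufa4l2, Cox4i2, Cox6a2 and Cox6b2. Cox6b2 was at 4.65 times, from a pericyte level that rests on 3 β-elemene and 5 vehicle cells.

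Ndufa4l2, a paralogue of the complex IV subunit Ndufa4 and a known target of the hypoxia-inducible factor, was a gene of stromal cells here. It lies on chromosome 10 (chr10:127514967-127517154, plus strand, GRCm38) and reached 520 CPM in pericytes with β-elemene and 368 CPM with vehicle. Fibroblasts had 380 and 340 CPM. Endothelial cells had 10.6 and 12.3 CPM, and malignant cells only 1.01 and 0.951 CPM. The gene was detected in 50.4% of fibroblasts with β-elemene and 54.2% with vehicle, and in 2.75% and 2.35% of malignant cells, although malignant cells were sequenced as deeply as fibroblasts. After each cell was thinned to 1000 UMIs the shares were 23.3% and 21.9% in fibroblasts and 0.0358% and 0.112% in malignant cells. The hypoxia marker Car9, a carbonic anhydrase, had 49.9 and 44.0 CPM in the largest malignant cluster and 106 and 76.9 CPM in the cluster led by Hmga2. It had 13.2 and 14.1 CPM in the fibroblast cluster with Tnc and 7.80 and 3.52 CPM in the one with Dcn. The relation of Ndufa4l2 to hypoxia in these cells was not tested. Within fibroblasts, the cluster with Col1a1, Timp1 and Tnc had 565 CPM of Ndufa4l2 with β-elemene and 439 CPM with vehicle, a ratio of 1.29 (1.24 to 1.34). The cluster with Col3a1 and Dcn had 118 and 111 CPM, a ratio of 1.07 (0.95 to 1.2). Ndufa4 itself, the general form, was present in every class, from 74.0 and 61.2 CPM in neutrophils up to 610 and 575 CPM in malignant cells.

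Cox4i2, the form of complex IV subunit 4 tied to oxygen sensing, had its peak in the same class. It lies at chr2:152754173-152765037 (plus strand, GRCm38). Pericytes had 185 CPM with β-elemene and 188 CPM with vehicle, and fibroblasts 22.4 and 21.5 CPM. Macrophages held a lower level of 12.2 and 11.0 CPM, which was not even across their clusters: 21.0 and 20.2 CPM in cluster 4 (Mmp12, Arg1), 11.4 and 10.7 CPM in cluster 0 (Apoe, C1qa), and 1.24 and 2.68 CPM in cluster 8 (Ccl8, Mrc1). Malignant cells had 0.327 and 0.638 CPM, from 25 and 57 UMIs. The fibroblast signal came from the cluster with Tnc, at 36.4 and 30.6 CPM, against 2.76 and 0.235 CPM in the cluster with Dcn. Its general partner Cox4i1 was abundant in all classes, from 346 and 315 CPM in neutrophils to 1285 and 1133 CPM in malignant cells.

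Cox6a2, the subunit 6a form of heart and skeletal muscle, had by far its highest level in dendritic cells. It had 48.3 CPM there with β-elemene and 48.4 CPM with vehicle, from 57 and 64 UMIs, and at most 0.956 CPM in any other class. Its UMIs were not confined to this class: 31 β-elemene and 22 vehicle macrophages held at least 1, against 6 and 10 dendritic cells. The dendritic UMIs sat in very few cells. Splitting the class by Siglech, a marker of plasmacytoid dendritic cells, was a step chosen after the Cox6a2 values were seen. The 8 β-elemene cells with a Siglech UMI held 55 of the 57 Cox6a2 UMIs, a level of 909 CPM (685 to 1183), and the 131 cells without one held 2 UMIs, or 1.79 CPM (0.216 to 6.45). In vehicle, 12 cells with Siglech held 63 UMIs, or 761 CPM (585 to 974), and 129 cells without it held 1 UMI. Median depth was similar on both sides of the split, 7611 against 8654 UMIs with β-elemene and 6559.5 against 9068 UMIs with vehicle. Cox6a1, the general form, was at 232 and 244 CPM in the whole dendritic class.

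Cox7a1, another form known from heart and skeletal muscle, was a low-level gene, highest over both libraries in macrophages and then monocytes. Macrophages had 10.7 CPM with β-elemene and 16.1 CPM with vehicle, fibroblasts 9.6 and 11.4 CPM, and malignant cells 1.73 and 2.18 CPM. Monocytes had 9.09 and 13.3 CPM, the largest neutrophil cluster 1.53 and 1.87 CPM, and endothelial cells 0 and 1.89 CPM. The fibroblast cluster with Tnc had 15.04 and 15.25 CPM, and the one with Dcn 1.95 and 2.35 CPM. Cox6b2, known from testis, stayed low in all classes, with its highest values in pericytes at 6.87 and 11.0 CPM and monocytes at 7.95 and 6.12 CPM. The highest class thus differed between the libraries. The pericyte values rest on detection in 3 of 37 cells with β-elemene and 5 of 39 with vehicle.

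**Figure D2:**
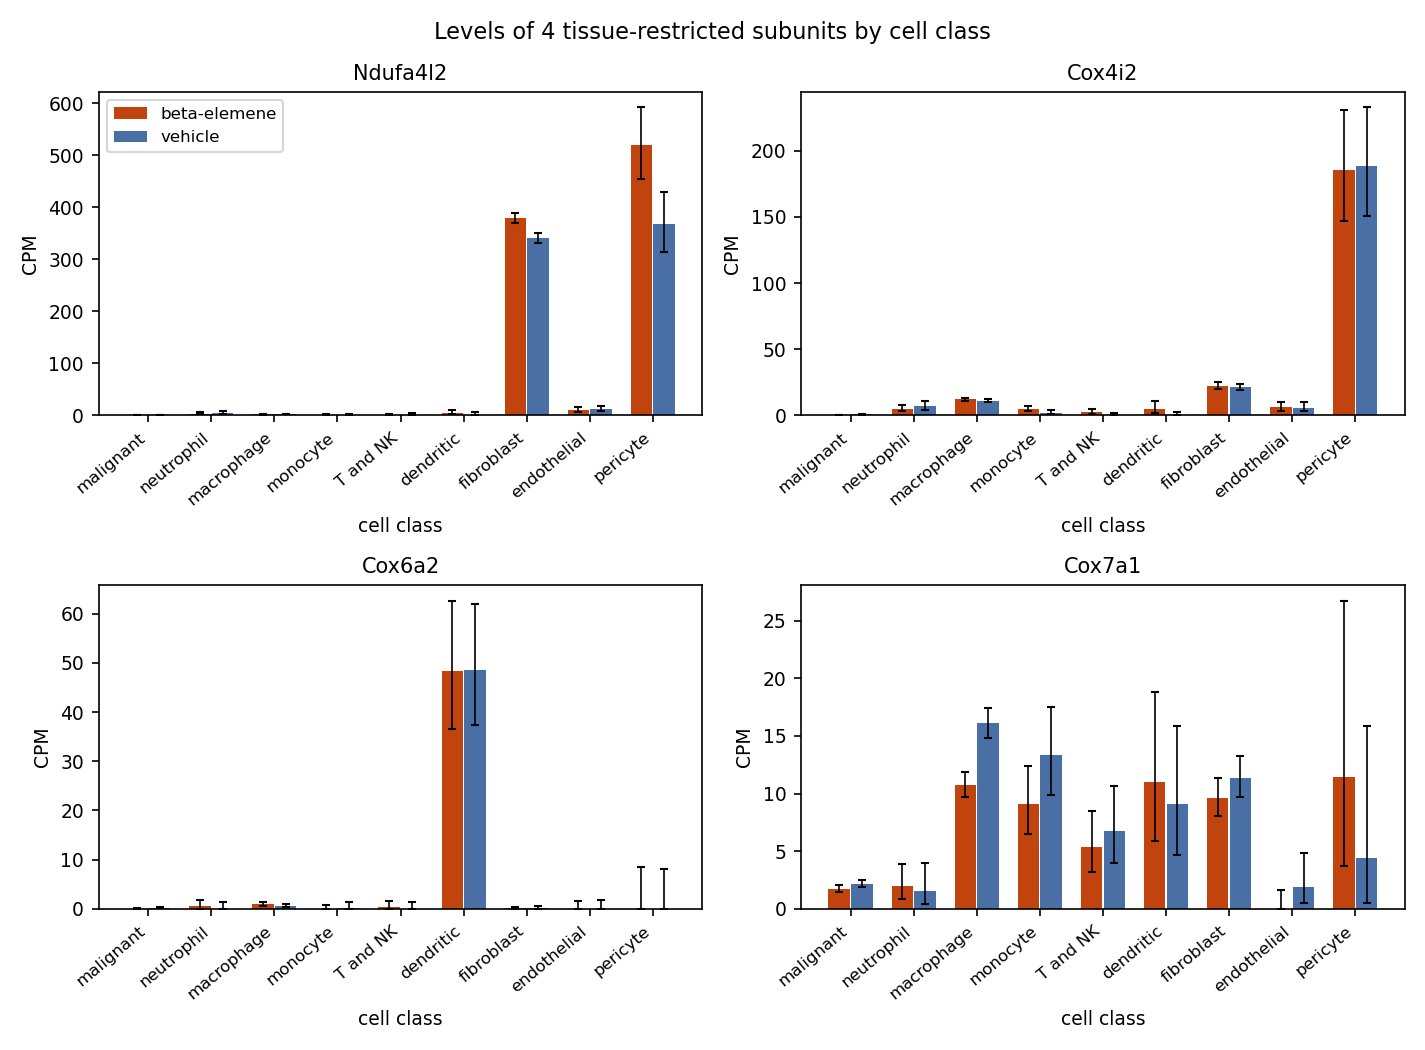
CPM of Ndufa4l2, Cox4i2, Cox6a2 and Cox7a1 (vertical axes) in the 9 cell classes, β-elemene left of vehicle, with bars for 1 library each and 95% exact Poisson intervals for counting error. Ndufa4l2 stands high in fibroblasts and pericytes, Cox4i2 in pericytes (185 and 188 CPM) and Cox6a2 in dendritic cells (48.3 and 48.4 CPM).

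Outside the paralogues the member furthest above the median of its other classes was Ndufb9, an accessory subunit of complex I encoded at chr15:58933756-58939488 (plus strand, GRCm38). Malignant cells had 954 CPM with β-elemene and 855 CPM with vehicle, which is 3.48 times the median of the other classes over both libraries. Pericytes, whose sum of malignant markers is given above, came next with 385 and 436 CPM. Neutrophils were lowest with 204 and 189 CPM. Its highest class was 4.59 times its lowest, less than in other members such as Ndufc2, an accessory subunit at 10.5 times. All 4 malignant clusters were high, from 757.6 CPM in vehicle cells of the cluster led by Hmga2 to 1200 CPM in β-elemene cells of the cluster led by Lgals1. mt-Cytb, the mitochondrial core of complex III, was 2.53 times the median of the other classes in malignant cells, at 6251 and 5976 CPM. Ndufv1, which binds NADH in complex I, was highest in pericytes at 114 and 107 CPM, against 13.7 and 16.1 CPM in neutrophils.

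The second question was how the members differed between the treated and the control tumour within a class. For each gene with at least 50 UMIs in a class, the ratio of β-elemene to vehicle CPM was taken, and a gene was called higher or lower where the ratio passed 1.5-fold and its interval left out 1. In the 8 classes in which both libraries reached 100 cells this gave 815 pairs of a member and a class, of which 29 were called lower, 3 higher and 783 neither. In malignant cells 6 of 106 measured members were lower, or 5.66%, against 6.37% of all 14900 genes measured there, and 0 were higher, against 1.74%. The members' count is near that of the background. In neutrophils 5 of 94 were lower (background 3.73%), in macrophages 4 of 108 (2.58%), in monocytes 1 of 101 (2.76%), in T and NK cells 3 of 101 (2.84%), in dendritic cells 4 of 97 (6.17%), in fibroblasts 3 of 107 (3.21%) and in endothelial cells 3 of 101 (2.39%). The 3 calls higher were 1 each in monocytes (background 2.46%), T and NK cells (2.69%) and endothelial cells (4.09%). In the other classes 0 members were called higher, against backgrounds of 1.46% in neutrophils, 1.01% in macrophages, 2.88% in dendritic cells and 2.33% in fibroblasts. Some members recurred: mt-Nd3 was lower in all 8 classes, Atp5k in 6, Ndufb1-ps in 5 and Ndufa3 in 3. The classes come from the same libraries, so such recurrence does not repeat the comparison. How often other genes recurred over the classes was not counted.

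Genes with very short transcripts are given apart. Of the nuclear subunits, 3 have a median annotated transcript of at most 400 nt: Atp5k (321.5 nt), Atp5md (362 nt) and Ndufa6 (382 nt). Of the mt- genes, mt-Atp8 (204 nt), mt-Nd4l (297 nt) and mt-Nd3 (348 nt) are that short. mt-Atp8 and mt-Nd4l also overlap the gene that follows them on the same strand, so reads from the shared bases cannot be told apart. The stretches below, from the GENCODE transcripts of GRCm38, show the last 20 bases before each overlap in lower case and the shared bases in capitals, 43 between mt-Atp8 and mt-Atp6 (chrM:7907-7969, plus strand) and 7 between mt-Nd4l and mt-Nd4 (chrM:10147-10173, plus strand).
mt-Atp8 and mt-Atp6: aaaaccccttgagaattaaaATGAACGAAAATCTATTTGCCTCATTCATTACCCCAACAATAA
mt-Nd4l and mt-Nd4: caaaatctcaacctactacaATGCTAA
The capitals open with the start codon of the second gene in both cases. mt-Nd3 has no overlap, with a gap of 68 bases to mt-Co3 before it and 70 bases to mt-Nd4l after it.

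mt-Nd3, a membrane-arm subunit of complex I, was the member with the lowest ratio among mt- genes in every class. It had 366 CPM with β-elemene and 723 CPM with vehicle in malignant cells, a ratio of 0.506 (0.499 to 0.513). Macrophages had 306 and 529 CPM, monocytes 224 and 408 CPM, T and NK cells 224 and 377 CPM, and dendritic cells 231 and 436 CPM. Fibroblasts had 151 and 276 CPM, endothelial cells 271 and 448 CPM, and neutrophils 64.2 and 123 CPM. The β-elemene value was the lower one each time, and the ratios lay between 0.506 in malignant and 0.605 in endothelial cells.

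Atp5k encodes subunit e of ATP synthase, which helps hold the enzyme in dimers. It had 207 CPM with β-elemene and 351 CPM with vehicle in malignant cells, a ratio of 0.589 (0.577 to 0.6). T and NK cells had 180.3 and 335 CPM, a ratio of 0.538, and neutrophils 53.7 and 102 CPM, a ratio of 0.529. Macrophages had 217 and 335 CPM, dendritic cells 189 and 307 CPM, and fibroblasts 191 and 302 CPM, and these 6 classes carried the calls. Monocytes (241 and 361 CPM, ratio 0.668) and endothelial cells (221 and 311 CPM, ratio 0.709) had the same direction without passing 1.5-fold.

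Atp5md, a small subunit associated with ATP synthase, was called in malignant cells only, at 280 CPM with β-elemene and 437 CPM with vehicle (ratio 0.640), and its ratios in the other 7 classes ran from 0.717 to 0.807. Ndufa6, an accessory subunit of complex I, did not share the pattern, with 149 and 157 CPM in malignant cells (ratio 0.949) and ratios from 0.740 in endothelial cells to 1.12 in neutrophils. mt-Nd4l, another membrane subunit of complex I, had ratios of 0.680 to 0.789 in the 8 classes, none of them called, but 1.38 in endothelial cells after each cell was thinned to 1000 UMIs. mt-Atp8, a small membrane subunit of ATP synthase, had ratios of 0.677 to 0.879 in 7 classes. In neutrophils mt-Atp8 went the other way, at 141 CPM with β-elemene and 95.7 CPM with vehicle, a ratio of 1.47 (1.26 to 1.72).

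Low ratios were common among short transcripts, counted with the short members included. The 3 nuclear and 3 mt- genes of at most 400 nt are part of each count of such genes. They weigh most where few were measured, as in dendritic and endothelial cells with 19 each. Short genes that are not members were not counted apart, so whether they share the low ratios in each class is not shown. Of the 154 measured genes of at most 400 nt in malignant cells, 24% were called lower and 79.9% had a ratio below 1, against 6.37% and 53.1% of all genes. Ratios below 1 made up 94.7% of such genes in endothelial cells and also in dendritic cells, 88.4% in T and NK cells, 75.8% in fibroblasts, 75% in neutrophils, 66.7% in monocytes and 60.9% in macrophages. In T and NK cells 20.9% of 43 such genes were called lower, in fibroblasts 24.2% of 62, in macrophages 12.2% of 115, in neutrophils 16.7% of 36, in endothelial cells 42.1% of 19, in monocytes 20% of 30 and in dendritic cells 47.4% of 19. On the log2 scale the median of their ratios was -0.31 in malignant cells, -0.08 in macrophages and -0.57 in dendritic cells, and that of the 3 short nuclear members was -0.64, -0.39 and -0.48. Nuclear subunits over 400 and up to 500 nt also sat below 1, with a median log2 ratio of -0.34 in malignant cells (all genes of that length -0.14) and of -0.20 in fibroblasts and monocytes. Nuclear subunits over 1000 nt had medians of 0.12 in malignant cells, 0.14 in macrophages, 0.16 in monocytes and 0.21 in fibroblasts, and of -0.05 in neutrophils. The relation to length was not of one direction over all genes, since those over 3000 nt, a length no nuclear subunit has, also lay below 1 in most classes: 60.9% of them in malignant cells (median log2 ratio -0.05), 66.8% in macrophages (-0.07) and 64.9% in monocytes (-0.10). The part of transcript length in the low values of the short members was not tested. Gm42418, a gene that collects ribosomal RNA reads, also moved with the library, at 4.67% of UMIs with β-elemene and 5.24% with vehicle, and its part was not tested.

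**Figure D3:**
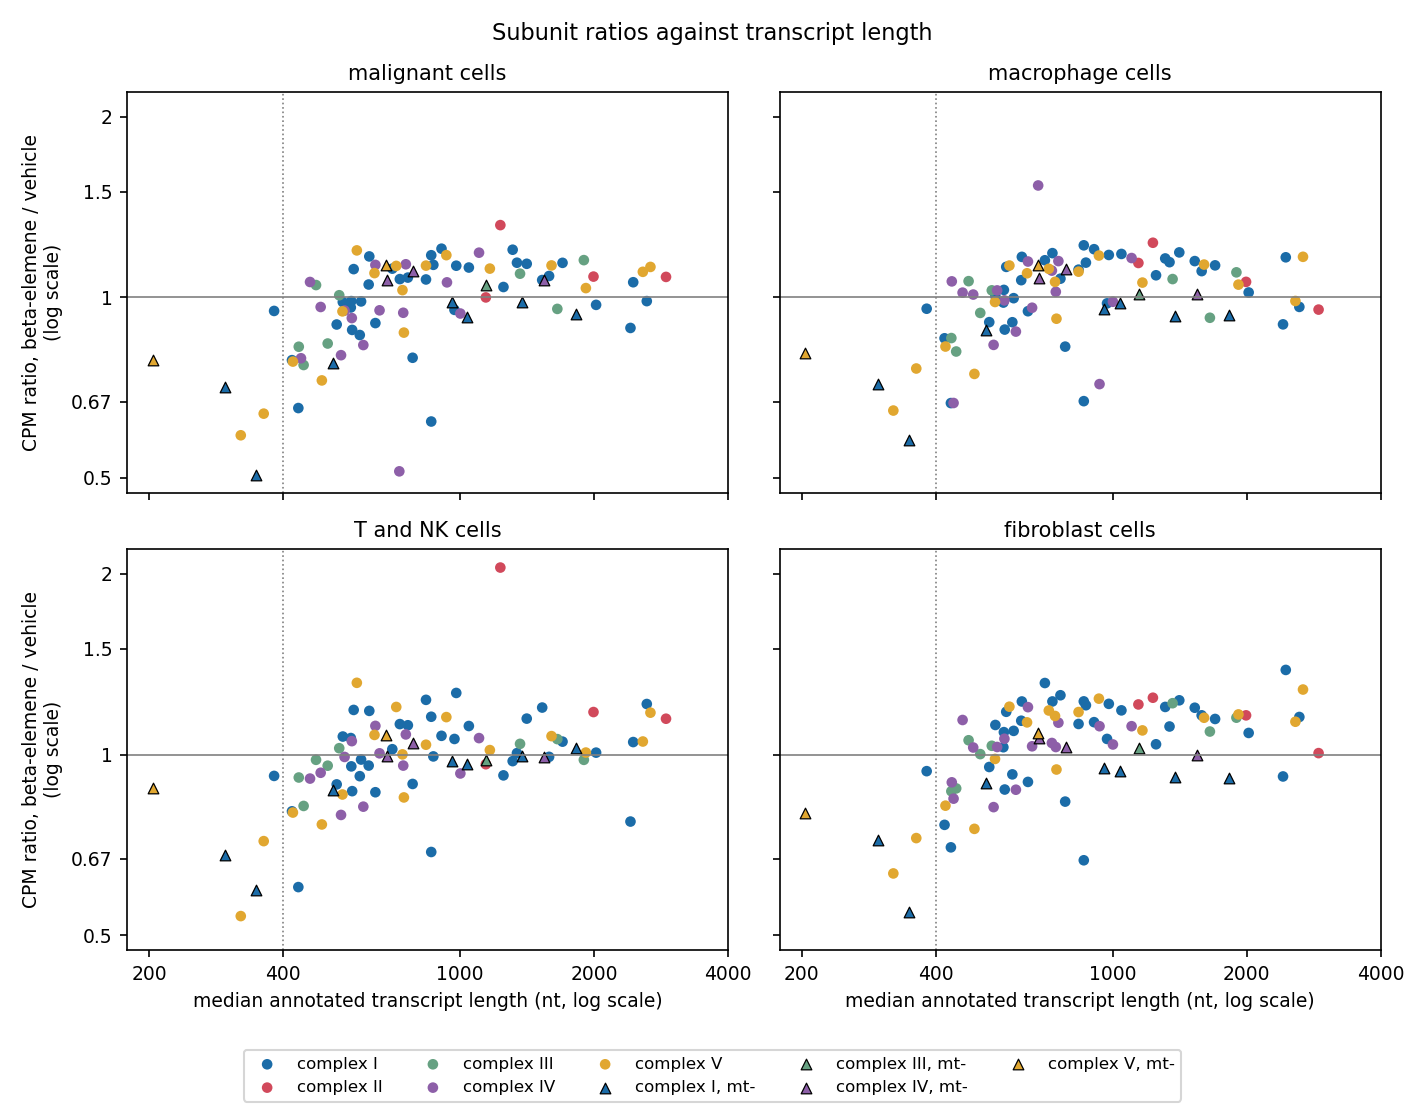
CPM ratio of β-elemene over vehicle (vertical, log scale) against median annotated transcript length (horizontal, nt, log scale) for nuclear subunits (circles) and mt- genes (outlined triangles) in 4 classes, coloured by complex, with a dotted line at 400 nt. Points left of the line and just right of it lie mostly below 1, and Sdhd is the single high point in T and NK cells at 2.05.

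Complex I has 36 long nuclear subunits and 7 mt- genes. Ndufb1-ps, annotated by GENCODE as a non-coding transcript of 861 nt although named for a subunit, had the pattern of the short genes: 222 CPM with β-elemene and 358 CPM with vehicle in malignant cells (ratio 0.621, 0.609 to 0.632), 244 and 364 CPM in macrophages (0.671), and 239 and 418 CPM in dendritic cells (0.572). It was below 1 in all 8 classes and called lower in malignant cells, neutrophils, dendritic cells, fibroblasts and endothelial cells. Ndufa3, an accessory membrane-arm subunit of 433 nt, had 83.8 and 128 CPM in malignant cells (0.653), 130.5 and 196 CPM in macrophages (0.666) and 129 and 215 CPM in T and NK cells (0.601), the classes with calls, and 0.693 to 0.769 in the others. The call in macrophages was lost with the median of all genes at a ratio of 1 (0.676), that in T and NK cells with cells thinned to 1000 UMIs (0.840) and in the largest cluster alone (0.788), and the monocyte value of 0.769 was 1.005 after thinning. Ndufa1, Ndufa2, Ndufa5, Ndufb2, Ndufc1 and Ndufv3, all accessory subunits, were below 1 in all 8 classes without a call.

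A larger group of complex I subunits had ratios above 1 in all classes where they were measured, at small size. Ndufa8, Ndufa9, Ndufa12, Ndufab1, Ndufb5, Ndufb8, Ndufb10, Ndufb11, Ndufs4 and Ndufs8 were above 1 throughout, although Ndufa9 and Ndufab1 were under 1 in 1 class each when mt- genes and Gm42418 were left out of the scaling, and Ndufab1 in 1 class when the median of all genes was set to a ratio of 1. Ndufs8, a core iron-sulphur subunit, had 82.7 CPM with β-elemene and 73.3 CPM with vehicle in malignant cells (ratio 1.13), and its ratios ran from 1.10 to 1.27. Other core subunits were mixed: Ndufs1 had ratios from 0.963 in macrophages to 1.65 in dendritic cells (31 and 21 UMIs, interval 0.920 to 3.03), and Ndufv1 from 0.854 in neutrophils to 1.2 in T and NK cells. Ndufv2, which carries an iron-sulphur centre beside Ndufv1, had 149 and 124 CPM in malignant cells, with ratios from 0.975 in T and NK cells to 1.2 in fibroblasts, and Ndufs7, another iron-sulphur subunit, had ratios from 0.977 in neutrophils to 1.21 in fibroblasts. Ndufb5 had its highest ratio in neutrophils, 1.46 (1.08 to 1.99), and Ndufs5 its lowest there, 0.705 (0.574 to 0.866), both accessory subunits. Ndufs3 had 1.37 (1.16 to 1.63) in monocytes, the highest of that class among long nuclear subunits with at least 100 UMIs. Ndufab1, the mitochondrial acyl carrier protein, had 1.38 (1.30 to 1.48) in fibroblasts, and Ndufb9 1.32 (1.26 to 1.37) there and 1.35 (1.21 to 1.51) in endothelial cells, the last 0.964 after thinning. Ndufb9 is highest in malignant cells. Their markers Krt8, Krt18 and Epcam summed to 379 and 264 CPM in fibroblasts and 274 and 75.5 CPM in endothelial cells. The same sum was lower with β-elemene in monocytes (85.9 and 100 CPM) and dendritic cells (106 and 263 CPM). Its part in the ratios was not tested.

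The mt- genes of complex I were lower with β-elemene in sum in most classes. Its summed ratio was 0.916 (0.913 to 0.918) in malignant cells, 0.914 in macrophages, 0.872 in monocytes, 0.904 in dendritic cells, 0.902 in fibroblasts, 0.936 in T and NK cells, 0.931 in neutrophils, and 0.994 (0.972 to 1.02) in endothelial cells. All 7 genes were below 1 in malignant cells, macrophages and fibroblasts. The short mt-Nd3 weighed on these sums, but longer genes lay on the same side: in malignant cells mt-Nd2 had 2937 CPM with β-elemene and 3168 CPM with vehicle (ratio 0.927), mt-Nd1 2645 and 2696 CPM (0.981), and mt-Nd4 2281 and 2327 CPM (0.980). mt-Nd5 had 404 and 430.1 CPM (0.939), but 192 and 153 CPM in neutrophils (1.25, 1.11 to 1.42). mt-Nd6, the one gene of the opposite strand, was called lower in neutrophils at 12.3 and 23.1 CPM (0.530, from 50 and 59 UMIs), and had 0.776 in malignant cells.

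Complex II, succinate dehydrogenase, held the clearest member above 1. Sdhd, one of its membrane anchors, had 59.0 CPM with β-elemene and 44.7 CPM with vehicle in malignant cells, a ratio of 1.32 (1.26 to 1.38). T and NK cells had 51.3 and 25 CPM, from 172 and 67 UMIs, a ratio of 2.05 (1.54 to 2.76), and endothelial cells 60.8 and 34.0 CPM, a ratio of 1.79 (1.34 to 2.41). Both of these were called. Macrophages had 72.5 and 58.8 CPM (1.23, 1.16 to 1.31), fibroblasts 48.1 and 38.7 CPM (1.24), monocytes 66.1 and 56.4 CPM (1.17), dendritic cells 66.1 and 48.4 CPM (1.36), and neutrophils 34.1 and 26.7 CPM (1.28), the last 3 with intervals that reach below 1. The β-elemene value was thus the higher one in all 8 classes, and also in all 4 malignant clusters (1.27 to 1.41) and all 3 lymphoid clusters, among them the one led by Icos with 45.7 and 17.7 CPM (2.58, 1.53 to 4.51). It was the lower one in neutrophil cluster 7 (28.8 and 30.7 CPM, 0.937), in the small neutrophil cluster 28 (18.9 and 34.8 CPM, from 4 and 7 UMIs) and slightly in pericytes (41.2 and 41.6 CPM). The other subunits were nearer 1. Sdhc, the second anchor, had 64.1 and 59.2 CPM in malignant cells (1.08) and was called lower only in neutrophils, at 8.83 and 16.1 CPM (0.549, from 36 and 41 UMIs). Sdhb, the iron-sulphur subunit, had 85.3 and 85.4 CPM in malignant cells (0.999), and Sdha, the flavoprotein, 50.6 and 46.8 CPM (1.08).

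Sdhd, the subunit with the most calls higher, is shown with the 120 bases before its RefSeq start site (chr9:50603850-50603969, minus strand, GRCm38.p6). The capitals mark a match to the motif of NRF1, a transcription factor long tied to nuclear respiratory genes, which reads GCGCA, then any base, then GCGC, and was searched on both strands.
Sdhd: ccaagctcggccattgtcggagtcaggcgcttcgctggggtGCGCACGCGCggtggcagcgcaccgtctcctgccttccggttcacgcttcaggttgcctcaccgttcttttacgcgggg
The match begins 79 bases before the start site. Promoters were found in RefSeq for 77 of the 95 nuclear members. Over windows from 250 bases before to 50 after the start, 17 of 66 nuclear subunits (25.8%) hold the NRF1 motif, Sdhd and Atp5k among them, against 5.19% of 27025 genes in the table. The motif CCGGAAGT of GABP is in 5 of 66 (7.58%, all genes 4.31%), that of YY1, AAGATGG followed by CGG, in 5 (7.58%, all genes 0.995%) and ACGTG, the core of the hypoxia response element, in 15 (22.7%, all genes 21.8%). The motifs may overlap one another, and a match is a description of the letters only.

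Complex III has 8 long nuclear subunits and mt-Cytb. Uqcr11 and Uqcr10, small accessory subunits of 445 and 434 nt, were below 1 in all 8 classes: Uqcr11 had 354 CPM with β-elemene and 459 CPM with vehicle in malignant cells (0.771) and ratios from 0.701 to 0.878, and Uqcr10 had 253 and 305 CPM (0.827) and ratios from 0.798 to 0.916. Uqcrfs1, the Rieske iron-sulphur protein, was above 1 in all 8, from 1.02 in endothelial to 1.27 in dendritic cells, with 1 class under 1 when the median of all genes was set to a ratio of 1. The core proteins Uqcrc1 and Uqcrc2 lay on both sides of 1, with 0.956 and 1.15 in malignant cells. mt-Cytb had 6251 and 5976 CPM in malignant cells (1.05) and ratios from 0.923 to 1.12.

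In complex IV, cytochrome c oxidase, the general subunit Cox4i1 was above 1 in all 8 classes. It had 1285 CPM with β-elemene and 1133 CPM with vehicle in malignant cells (1.13, 1.12 to 1.14), 925 and 806 CPM in macrophages (1.15), 1069 and 891 CPM in monocytes (1.2), and 925 and 762 CPM in dendritic cells (1.21), down to 818 and 765 CPM in endothelial cells (1.07, 0.999 to 1.14). Cox7a2l, a factor that joins complex IV to complex III, ran from 1.02 to 1.22 and fell under 1 in 1 class with the median of all genes set to a ratio of 1. Cox7c, an accessory subunit of 540 nt, was below 1 in all 8, at 631 and 789 CPM in malignant cells (0.8) and between 0.750 and 0.854. Cox6c was below 1 as well, from 0.819 in T and NK cells to 0.951 in neutrophils. Cox5a lay above 1 in 7 classes, with 1.13 in malignant cells, and Cox5b, Cox6a1, Cox6b1, Cox7a2, Cox7b and Cox8a had ratios between 0.913 and 1.13 in every class.

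Among the tissue-restricted forms, Cox7a1 was called lower in macrophages (0.666, 0.584 to 0.759, from 381 and 594 UMIs). Within macrophage clusters its ratio was 0.692 in cluster 0, 0.682 in cluster 4 and 0.583 in cluster 8, so each of these clusters had the same direction. The call was lost with the median of all genes at a ratio of 1 (0.676) and in 6 other alternatives, at up to 0.692. Fibroblasts had 0.844 (0.669 to 1.06). Cox4i2 was called lower in malignant cells (0.513, 0.307 to 0.834), at levels of 25 and 57 UMIs in all. In the classes that carry it the ratio was 1.11 (0.965 to 1.27) in macrophages and 1.05 (0.892 to 1.23) in fibroblasts. Ndufa4l2 had 1.11 (1.07 to 1.16) in fibroblasts, and Cox6a2 0.997 (0.685 to 1.45) in dendritic cells. The mt- core subunits were slightly above 1 in most classes: mt-Co3 had 9265 and 8369 CPM in malignant cells (1.11) and ratios from 1.00 to 1.18, mt-Co2 6912 and 6465 CPM (1.07), and mt-Co1 4209 and 3947 CPM (1.07). mt-Co3 fell under 1 in 1 class under either other scaling.

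Complex V, ATP synthase, split by subunit in the same way. Above 1 in all 8 classes were Atp5d, the delta subunit of the catalytic head (438 CPM with β-elemene and 373 CPM with vehicle in malignant cells, 1.18, range 1.14 to 1.32), the stalk subunit Atp5f1 (438 and 388 CPM, 1.13, range 1.07 to 1.15) and the 3 genes of the c-ring. Of these, Atp5g1 had 329 and 293 CPM in malignant cells (1.12) and up to 1.35 in endothelial cells, Atp5g2 428 and 358 CPM (1.2) and up to 1.32 in T and NK cells, and Atp5g3 209.6 and 186 CPM (1.13) and up to 1.22. Atp5d in endothelial cells was 1.26, but 0.860 after thinning to 1000 UMIs. The catalytic pair Atp5a1 and Atp5b had 1.10 and 1.04 in malignant cells. Atp5c1, the rotating gamma subunit, had 1.12 there and 0.891 in neutrophils. Below 1 in all 8 were Atp5e, the epsilon subunit of 421 nt (473 and 606 CPM, 0.781), Atp5j2 (497 and 569.8 CPM, 0.873) and Atp5mpl, a small proteolipid of 489 nt (268 and 369 CPM, 0.727), which was called lower in dendritic cells (0.660) and endothelial cells (0.661). Thinning moved the endothelial value to 0.935, and the median of all genes at a ratio of 1 moved the dendritic one to 0.672, under 1.5-fold. mt-Atp6, the proton channel subunit, had 10933 and 9644 CPM in malignant cells (1.13), 10749.8 and 8991 CPM in endothelial cells (1.2) and 2289 and 2339 CPM in neutrophils (0.978).

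**Figure D4:**
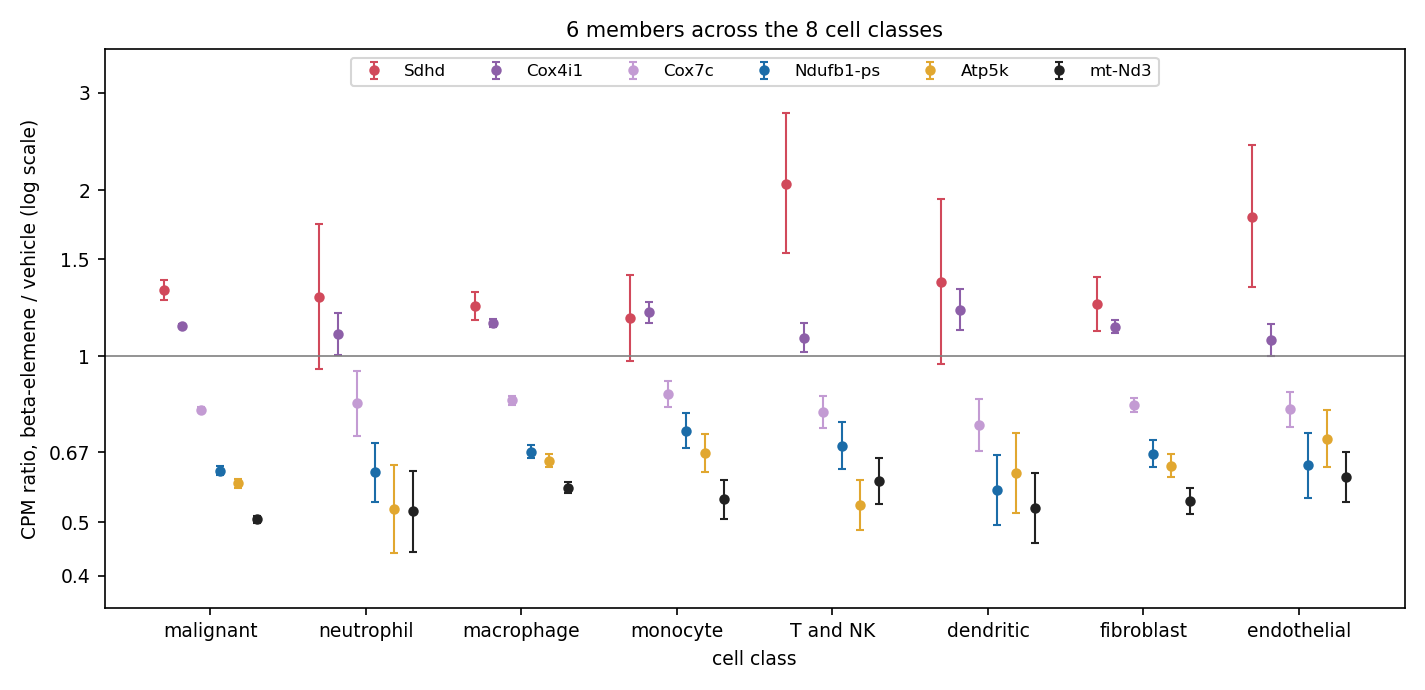
CPM ratio of β-elemene over vehicle (vertical, log scale) for Sdhd, Cox4i1, Cox7c, Ndufb1-ps, Atp5k and mt-Nd3 in the 8 classes, with 95% exact intervals for counting error. Sdhd and Cox4i1 lie above 1 and the other 4 below 1 in every class, and mt-Nd3 runs from 0.506 to 0.605.

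The long nuclear subunits were counted by direction beside all genes. Those below 1 were 35 of 78 measured in malignant cells (all genes 53.1%), 38 of 74 in neutrophils (54.1%), 30 of 80 in macrophages (54.2%), 21 of 77 in monocytes (52.3%), 33 of 75 in T and NK cells (50.8%), 36 of 76 in dendritic cells (53.5%), 19 of 79 in fibroblasts (42.2%) and 33 of 76 in endothelial cells (40.2%). Their share was below that of all genes in all but endothelial cells, and with the median of all genes set to a ratio of 1 the endothelial count was 45 and the fibroblast count 25. Their median log2 ratio was 0.16 in fibroblasts with all genes at 0.05, 0.10 in monocytes (all genes -0.02), 0.08 in macrophages (-0.02), 0.06 in malignant cells (-0.02) and 0.02 in dendritic cells (-0.03). In endothelial cells it was 0.03, under the 0.07 of all genes, in T and NK cells 0.01 with all genes at 0.00, and in neutrophils -0.03 with all genes at -0.03. All genes include many over 3000 nt, a length no nuclear subunit has. At 600 to 800 nt the medians of all genes and of nuclear subunits were 0.03 and 0.07 in malignant cells. Macrophages had 0.10 and 0.12, fibroblasts 0.18 and 0.18, T and NK cells 0.10 and 0.02, and endothelial cells 0.15 and 0.04. At 1000 to 1500 nt they were 0.06 and 0.16 in malignant cells and 0.05 and -0.01 in neutrophils. Whether members differ from genes of like length was not tested. Of the mt- genes 8 of 13 were below 1 in malignant cells, with a median of -0.03, and the summed mt- ratio was 1.05 (1.05 to 1.05) there and 1.12 (1.11 to 1.13) in endothelial cells, since the most abundant mt- genes lay above 1.

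**Figure D5:**
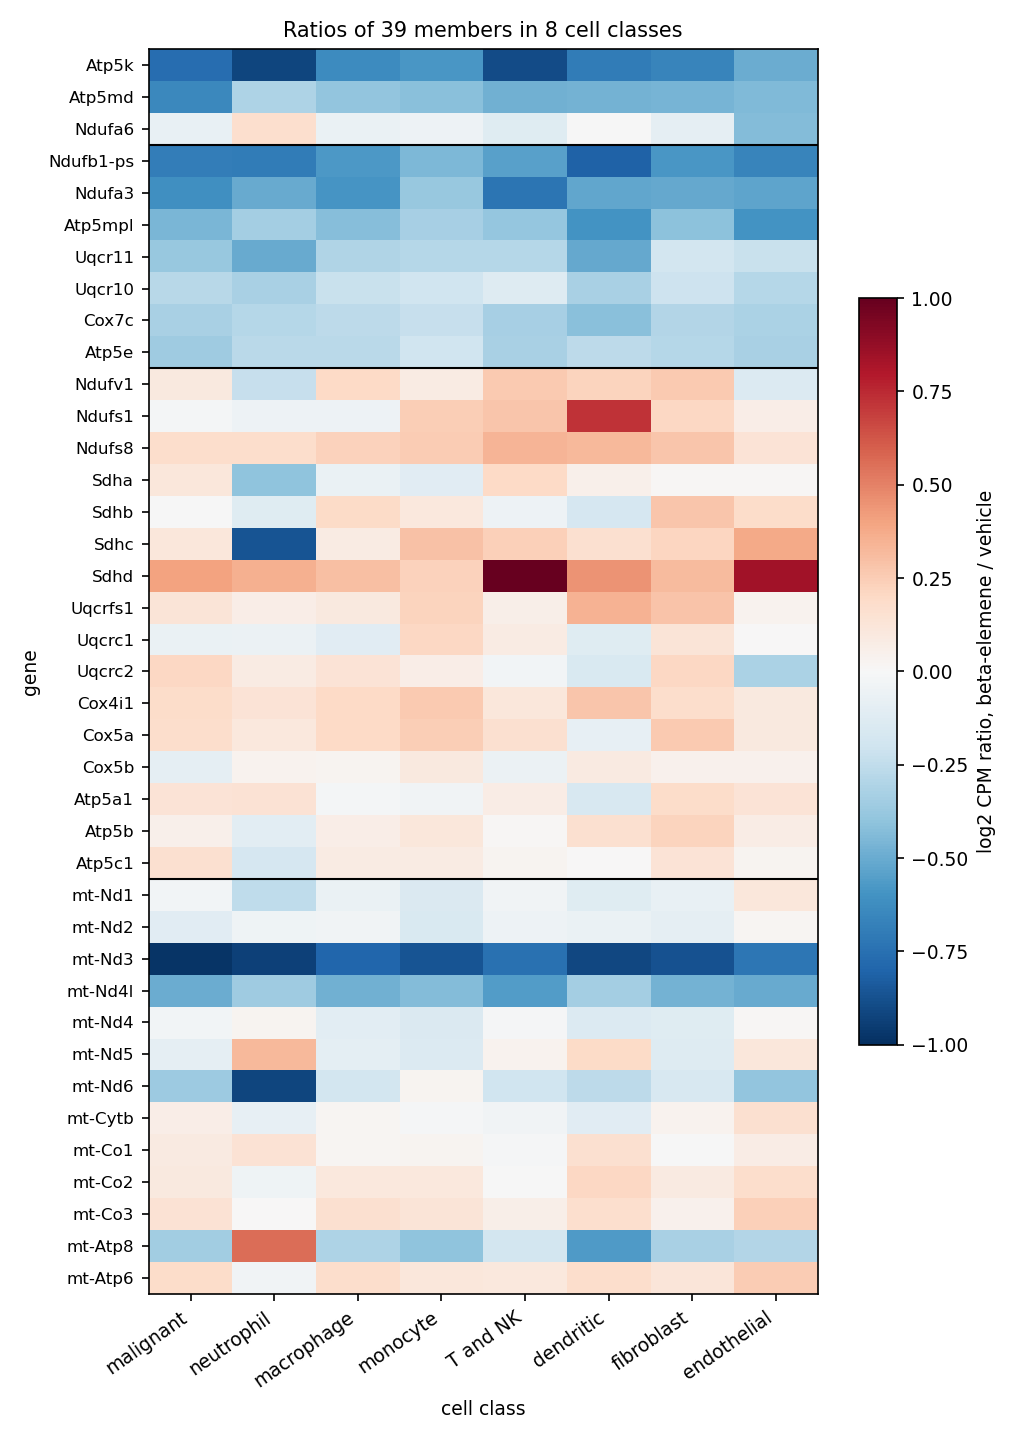
Log2 CPM ratio of β-elemene over vehicle (colour, limited to between -1 and 1) for 39 members (rows) in 8 classes (columns). Black lines part the 3 short nuclear subunits, 7 other subunits that were below 1 in all 8 classes, 16 further nuclear subunits and the 13 mt- genes. The 16 were chosen as main subunits of each complex. Among them Cox4i1, Cox5a and Cox5b are not part of the catalytic core of complex IV. Atp5k, Atp5md, the 7 subunits of the next block, mt-Nd3 and mt-Nd4l are blue in all columns, Ndufa6 is blue in 7 of the 8, and Sdhd is red in all.

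The 12 assembly factors, which build the complexes but are not part of them, had 1 call, Sdhaf1 of complex II, higher in monocytes at 20.0 CPM with β-elemene and 12.8 CPM with vehicle (1.57, 1.09 to 2.27, from 88 and 48 UMIs), although only 1.2 at a clustering resolution of 2.0. Of all genes, 2.46% were called higher in monocytes. The median log2 ratio of the assembly factors was 0.02 in malignant cells (all genes -0.02) and 0.23 in fibroblasts (all genes 0.05). In fibroblasts 10 of 12 lay above 1, where 42.2% of all genes lay below it. Ndufaf4, an assembly factor of complex I, had 0.784 (0.722 to 0.852) in malignant cells and 1.23 (1.03 to 1.49) in fibroblasts.

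Other genes, of mitochondria, of nuclear regulators and of the answer to hypoxia, were followed in lists. These lists were drawn up with earlier results of these data known. Of 20 genes of the TCA cycle and pyruvate entry, 2 were called in any class, Ogdh lower in T and NK cells (0.657) and Pdha1 lower in dendritic cells (0.528), and in malignant cells and macrophages the list had medians of 0.03 and 0.01 on the log2 scale. The lowest in both was Cs, citrate synthase (0.786 and 0.849), and the highest Mpc1, a pyruvate carrier subunit (1.34 and 1.25). In fibroblasts 4 of the 20 lay below 1, with a median of 0.11. Of 19 electron carriers and carriers of ADP, phosphate and anions, 5 lay below 1 in fibroblasts (median 0.23, highest Cyc1, cytochrome c1 of complex III, at 1.3) and 7 in malignant cells (median 0.09), and the 1 call was Coq3, higher in T and NK cells (1.92). Of 31 assembly genes outside the name rule, 0 were called in malignant cells, with Lyrm7, which serves complex III, lowest at 0.689. Lyrm7 was called lower in macrophages at 0.530 and Timmdc1 in dendritic cells at 0.512. In endothelial cells 3 of 21 measured were called higher, led by Cox11 at 1.84, against 4.09% of all genes. Of 22 genes that transcribe, keep or translate mitochondrial DNA, 0 were called in malignant cells, with 10 above 1 and 12 below it and the RNA-binding protein Slirp lowest at 0.751. Elsewhere 4 calls of that list were lower, Gfm1 (0.569) and Lrpprc (0.640) in monocytes, Slirp in neutrophils (0.625) and Polg2 in endothelial cells (0.367), and 1 was higher, Polrmt in fibroblasts (1.75). Of 10 regulators of nuclear respiratory genes, 8 were measured in malignant cells, from Pprc1 at 0.865 to Yy1 at 1.11, and Pprc1 was called higher in T and NK cells (1.70). Hif1a was the lowest of them in macrophages (0.777), T and NK cells (0.716) and fibroblasts (0.859). Of 12 genes that answer to hypoxia, 1 lay below 1 in malignant cells (median 0.19), the growth factor gene Vegfa at 0.709, and Ankrd37 was called higher at 1.52. Ankrd37 was also called higher in monocytes (1.59), and Vegfa lower in dendritic cells (0.429) and endothelial cells (0.307). These called genes were chosen by their values, and most rest on under 100 UMIs in each library. Of all genes, 1.01% to 4.09% were called higher and 2.39% to 6.37% lower, depending on the class. Ratios below 1 made up 53.1% of all genes in malignant cells and 42.2% in fibroblasts.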

How the data were processed

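Tumour cells were profiled with Chromium Single Cell 3' v3 chemistry, 1 library per group. The deposited values are UMI counts per gene and barcode, written by the authors with Cell Ranger 7.1.0 per the file headers. Cell Ranger, STAR and the mm10 build are named in the submitters' processing notes. The annotation release and intron counting are not given in the sources used here. The libraries held 157282740 (β-elemene) and 168750895 (vehicle) UMIs.

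Barcodes with under 200 genes or over 20% mitochondrial UMIs were removed, leaving 10861 β-elemene and 10803 vehicle barcodes. Doublets were called with scanpy's Scrublet and removed, 336 (3.09%) and 388 (3.59%). Cells were clustered with scanpy 1.11.5 and leidenalg 0.10.2 (2000 variable genes, none with a name of the member rule, 30 principal components, resolution 1.0), both libraries together, and clusters were named from marker lists with at least 3 detected markers. UMIs were summed per class and library and scaled to 1000000. Ratios are β-elemene over vehicle, for genes with at least 50 UMIs in the class, with exact conditional 95% intervals (scipy 1.17.1) that cover counting error only. Calls need 1.5-fold and an interval that leaves out 1. The calculation was tested on simulated data. Transcript lengths are medians over GENCODE vM21 transcripts.

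The members and gene lists were chosen with earlier results of these data known. Named genes are all mt- genes, main nuclear subunits of each complex and paralogue sets. Members at 4 times the median of other classes or more, called members, and the highest and lowest ratios of each class are also named. The main nuclear subunits include Cox4i1, Cox5a and Cox5b, which are not part of the catalytic core of complex IV. Cox6a2 in Siglech cells, Ndufb9, the accessory subunits listed by direction and the cluster values were added after their values were seen.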

Additional observations from a re-analysis of the deposited data

Results flagged for a closer look

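In 2 members the ratio of β-elemene to vehicle was at least 1.2-fold above 1 in some cell classes and at least 1.2-fold below it in others, with intervals for counting error that left out 1 on both sides. The difference was not tested in either case, since each group is 1 library. Ndufaf4, an assembly factor of complex I, stood at 1.235 in fibroblasts, against 0.7842 in malignant cells. mt-Atp8, which shares bases with mt-Atp6, had a ratio of 1.471 in neutrophils, against 0.786 in malignant cells, 0.8079 in macrophages, 0.8178 in endothelial cells, 0.7979 in fibroblasts, 0.757 in monocytes and 0.6766 in dendritic cells.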

How the results depend on the processing

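No paired analysis was possible because each group is 1 library. No called value changed its sign under any alternative that was run, but 8 of the 32 called pairs were under 1.5-fold in at least 1 alternative: Cox7a1 (to 0.692) and Ndufa3 (to 0.6905) in macrophages, Ndufa3 in T and NK cells (0.840), Atp5mpl in dendritic (0.680) and endothelial cells (0.935), Ndufb1-ps in fibroblasts (0.713), mt-Nd6 in neutrophils (0.7315) and Sdhaf1 in monocytes (1.2). With the median of all genes at a ratio of 1, members called lower numbered 2 in macrophages, against 4, and 5 in endothelial cells, against 3. Of the counts over classes, 417 values stayed within 1.5 times the main count and 34 moved, and the cause was not tested. The 3 pairs called higher became 10 with the mean over cells of each cell's CPM, 5 at 10% mitochondrial UMIs and 500 genes, 7 with each library clustered alone, 6 with the largest cluster of a class, 14 with cells thinned to 1000 UMIs and 5 with at least 1 UMI in each library. At 1.2-fold, 58 pairs were higher and 114 lower, in place of 3 and 29. Of all 14900 genes in malignant cells, 1183 were higher and 2056 lower at 1.2-fold. Of all 12462 genes in fibroblasts, 1540 were higher and 998 lower. No share of all genes is given for the other settings, so these counts are not read as a result about the members. Members of the mt- set below 1 numbered 4 in neutrophils with no mitochondrial limit and 3 at 10%, against 8. In T and NK cells they numbered 4 at 10% and 4 with libraries clustered alone, against 10, and in dendritic cells 4 after thinning, against 8. Long nuclear subunits below 1 numbered 11 in monocytes and 51 in T and NK cells with libraries clustered alone, against 21 and 33, 20 in dendritic cells and 29 in fibroblasts after thinning, against 36 and 19, and 11 in fibroblasts with a short limit of 500 nt. With that limit, short nuclear subunits below 1 numbered 12 in T and NK cells, 11 each in malignant, dendritic and endothelial cells and fibroblasts, 10 in macrophages, 10 in monocytes and 9 in neutrophils. With the shortest annotated transcript as the length, a choice made after seeing the data, they numbered 9 in malignant cells and in fibroblasts, 7 in neutrophils and 8 in each of the other classes. A limit of 300 nt left no short nuclear subunit and gave no value. Ratios of Sdhd in T and NK cells ran from 1.64 to 2.58 over the alternatives, and of mt-Nd3 in malignant cells from 0.496 to 0.532. Of 202 ratios of named members followed over the alternatives, 45 crossed 1 at least once. Sdhd in fibroblasts reached 0.998 at its lowest, Atp5d and Ndufb9 in endothelial cells 0.860 and 0.964, Ndufa3 in monocytes 1.005 and mt-Nd4l in endothelial cells 1.38 at its highest, and Cox4i1 reached 0.987 in neutrophils, 0.95 in T and NK cells and 0.988 in endothelial cells. Neutrophils, at a median of 1981 UMIs with β-elemene and 1909 with vehicle, limit what can be seen of low members most.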
